A study of Caenorhabditis elegans with 2 samples.

Results

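The genes xbp-1, crt-1 and pdi-2 are the members of the endoplasmic reticulum (ER) folding and unfolded protein response group among the 189 genes that the authors' deposited gene table lists for binding of the nuclear hormone receptor NHR-86. They were found by gene name, and each was joined to 1 of the 220 peaks of the deposited peak list. With a second peak that stands beside the xbp-1 peak, 4 of the 220 peaks are described here. The genes were named because the table lists them and because a peak could be joined to each, without use of its distance from the gene. Every value of this contrast is therefore given as a description, without a test.

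The ER folds secreted and membrane proteins. When unfolded proteins build up there, the sensor IRE-1 splices the mRNA of xbp-1, and the XBP-1 protein made from the spliced message switches on genes for chaperones and folding enzymes. In C. elegans this branch is needed for development when the immune response to Pseudomonas aeruginosa is active, because that response makes many secreted proteins. crt-1 encodes calreticulin, a calcium-binding chaperone of the ER that helps fold glycoproteins. pdi-2 encodes a protein disulfide isomerase, an enzyme that forms disulfide bonds and also serves as a subunit of the prolyl hydroxylases that modify cuticle collagen.

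NHR-86::GFP was immunoprecipitated with an anti-GFP antibody from whole animals given the small molecule R24 at 70 µM or the solvent DMSO at 1% overnight at 20 °C, and the DNA was sequenced. Both groups were the strain VL648, labelled stage L4, with the unc-119(ed3) mutation and the integrated transgene wwIs22, in which the nhr-86 promoter drives nhr-86 fused to GFP together with unc-119(+). The strain also keeps its own nhr-86 gene, and the study's methods describe raised nhr-86 transcript in it. Each group held 1 library, with 879943 tags for R24 and 2047658 for DMSO, so no difference between the groups has a replicate check, and no library of untagged animals or of input DNA was used here. The peak list numbers its libraries R24_2 and DMSO_2 and the sample labels carry no number, so they were matched by treatment alone, and whether these are the labelled libraries was not settled. All positions are in the ce10 genome build.

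The 3 genes lie on 3 chromosomes. The xbp-1 peak spans III, 4195079 to 4195396, the second peak beside it spans III, 4195537 to 4195834, the crt-1 peak spans V, 6098900 to 6099521, and the pdi-2 peak spans X, 4526462 to 4526785. Gene positions in ce10 were not used here, so the distance of each peak from a start site is not given. In the gene order of the WBcel235 annotation, the protein-coding neighbours of xbp-1 are dnj-16 and asd-1, those of crt-1 are smut-1 and Y38A10A.11, and those of pdi-2 are tmyb-1 and nhr-35. Of these 6 neighbours only asd-1, which encodes an RNA-binding regulator of splicing, is in the gene table, and the second peak beside xbp-1 carries its value. The annotated spans of crt-1 and smut-1 overlap, so a peak there cannot be given to crt-1 by position alone.

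All 4 peaks had an R24 signal within the middle range of the list (quartiles of 19 and 29 tags) and a DMSO signal above the list's median. For all but the xbp-1 peak, this margin of DMSO signal over the median was within counting error. The xbp-1 background was taken from a wider window that held more DMSO tags, which narrows its counting interval. Pileup is the number of R24 tags, extended to the fragment length of 296 bp, that cover the summit. The background is the local number of DMSO tags after the deeper DMSO library was scaled by 0.430 to the R24 library. Fold is pileup + 1 over background + 1, as the authors' peak caller gave it. The median peak of the list had a pileup of 23 tags, a background of 5.16 tags and a fold of 3.90.

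At xbp-1, 23 R24 tags (exact Poisson 95% interval 14.6 to 34.5) stood over a DMSO background of 7.25, a fold of 2.91. At the second peak beside it, 26 R24 tags (16.98 to 38.1) stood over 8.16, a fold of 2.95. These folds ranked 209 and 207 among the 220 peaks, counted from the highest, so both lay close to the bottom of the list. At crt-1, 24 R24 tags (15.4 to 35.7) stood over 6.45, a fold of 3.36 and rank 171. At pdi-2, 20 R24 tags (12.2 to 30.9) stood over 5.59, a fold of 3.19 and rank 189. The list as a whole ran in fold from 2.31 to 11.09, and 92.3% of its peaks had a fold of at least 3, a level that the crt-1 and pdi-2 peaks reached and both peaks at xbp-1 did not.

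**Figure D1:**
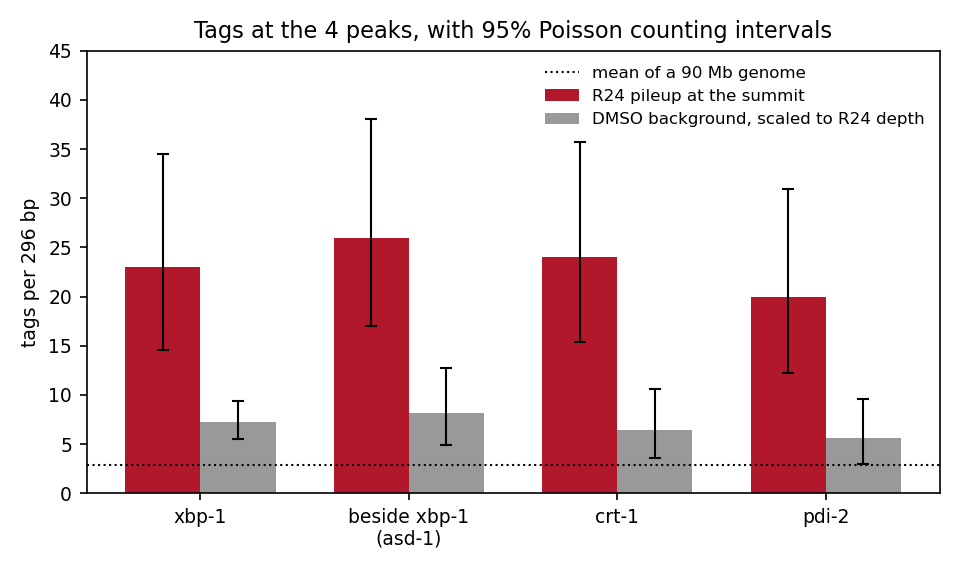
R24 pileup at the summit (red bars) and DMSO background scaled to the depth of R24 (grey bars) at each of the 4 peaks, in tags per 296 bp, with exact Poisson 95% counting intervals; the xbp-1 background is the density of a wider window, converted to 296 bp. The R24 bars stand at 20 to 26 tags and the DMSO bars at 5.59 to 8.16, and the dotted line marks the mean of 2.89 tags that either library would have over a genome of 90 Mb.

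The DMSO background at these loci was above a genome-wide mean. Spread evenly over 90 Mb, the worm genome size setting of MACS, either library scaled to R24 depth would give 2.89 tags per fragment window. The DMSO background was 2.51 times this mean at xbp-1, where it was taken from a window wider than the summit, 2.82 times at the second peak, 2.23 times at crt-1 and 1.93 times at pdi-2. The R24 pileup at the 4 summits was 7.95, 8.98, 8.29 and 6.91 times the mean. The summits were placed where the R24 signal was highest, which favours R24 in this comparison. A DMSO background above the mean was common in the list, since 197 of the 220 peaks had one, and the median peak stood at 1.78 times the mean. How much of the DMSO signal came from the tagged receptor was not measured.

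By background, the second peak ranked 31, xbp-1 48, crt-1 64 and pdi-2 85 of 220, so all 4 were above the median. At xbp-1 the counting interval of the background, 5.49 to 9.39 tags, lay above the list's median of 5.16. That interval rests on 57 DMSO tags in 1 kb, against 13 to 19 in the fragment window at the other peaks. In the fragment window of the xbp-1 summit at most 16 DMSO tags can lie. The interval of 16 such tags, 3.93 to 11.17 after scaling, holds the median. The intervals were 4.92 to 12.75 at the second peak, 3.61 to 10.63 at crt-1 and 2.97 to 9.55 at pdi-2. Each of these holds the median, so those backgrounds differed from it by less than counting error. By pileup the second peak ranked 81, crt-1 100, xbp-1 109 and pdi-2 146. Tied peaks were all given the best rank of their tie, and ties were common in both measures. In background, 3 other peaks tied with the second peak, 1 with xbp-1, 7 with crt-1 and 7 with pdi-2. The difference of pileup and background, a measure of R24 gain in tags, was 15.7 at xbp-1, 17.8 at the second peak, 17.6 at crt-1 and 14.4 at pdi-2, against a median of 18.1 over the list. The ranks by this gain were 153, 115, 120 and 173, so the second peak and crt-1 were near the middle of the list in gain while their folds were low. Background made up 31.5% of the pileup at xbp-1 and 31.4% at the second peak, ranks 13 and 14 of 220 from the highest share. It made up 26.9% at crt-1 and 27.9% at pdi-2, against a median of 22.0%.

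**Figure D2:**
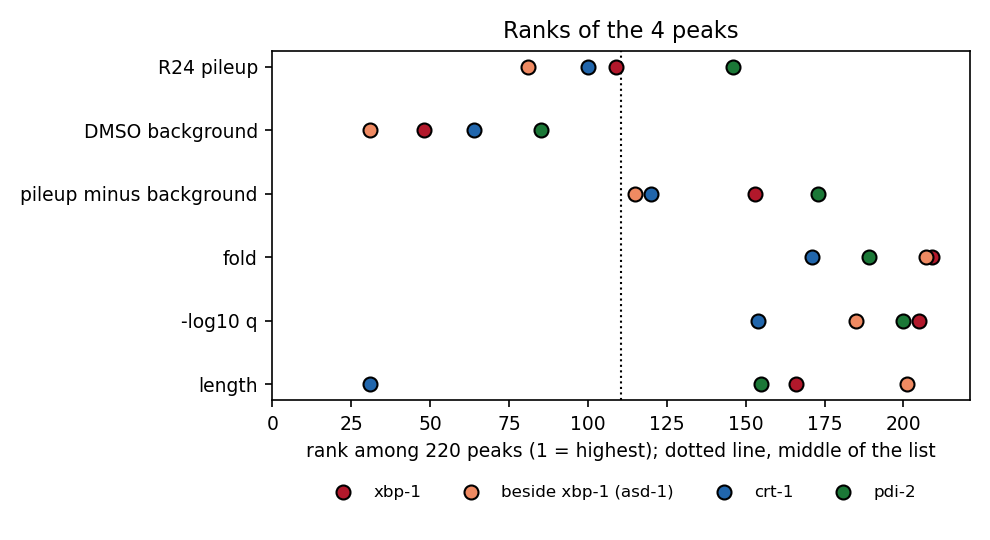
Rank of each of the 4 peaks among 220 (x axis, 1 is the highest) for 6 measures (rows), 1 colour per peak, with the middle of the list dotted. All 4 peaks lie in the higher part of the list by DMSO background, with ranks of 31 to 85, and in the lower part by fold, with ranks of 171 to 209.

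The low folds can be split into a part from the R24 tags and a part from the DMSO tags, by setting each peak against a peak of median pileup and median background, whose fold is 3.90. For xbp-1 the pileup equalled the median, so its part was 0 on the log2 scale and the background part was -0.42. At the median background its 23 tags would give a fold of 3.90. For the second peak the pileup part was 0.17 and the background part -0.57. For crt-1 these were 0.06 and -0.27, and for pdi-2 they were -0.19 and -0.10. Against this median peak, the larger part lay in the background at xbp-1, its neighbour and crt-1, and in the R24 tags at pdi-2. This split is arithmetic on the listed values, depends on the peak used as reference and carries the counting error of both tag numbers. Among peaks with a background within 20% of its own, the xbp-1 pileup ranked 47 of 57, also on the lower side. The second peak's pileup ranked 35 of 42, that of crt-1 43 of 65 and that of pdi-2 57 of 68.

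Among peaks with a background within 20% of its own, each of the 4 peaks was also on the lower side in fold. The xbp-1 fold ranked 54 of 57 such peaks, whose median fold was 3.56 and median pileup 28 tags. The second peak ranked 36 of 42, crt-1 49 of 65 and pdi-2 60 of 68. The xbp-1 background was shared by 1 other peak, on chromosome X and joined to no gene, with 26 R24 tags and a fold of 3.27. Several peaks tied next above it, at 7.31. The first of them in the list, that of Y65B4BR.10 on chromosome I, had 30 R24 tags and a fold of 3.73. In that tie the folds ran from 2.53 at ZK632.9, with 20 tags, to 4.82 at Y48C3A.5, with 39. The peak next below xbp-1 in background, on chromosome V and joined to no gene, had 66 R24 tags over 6.996 and a fold of 8.38. Over all 57 peaks of like background, the pileup ran from 19 to 66 R24 tags.

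**Figure D3:**
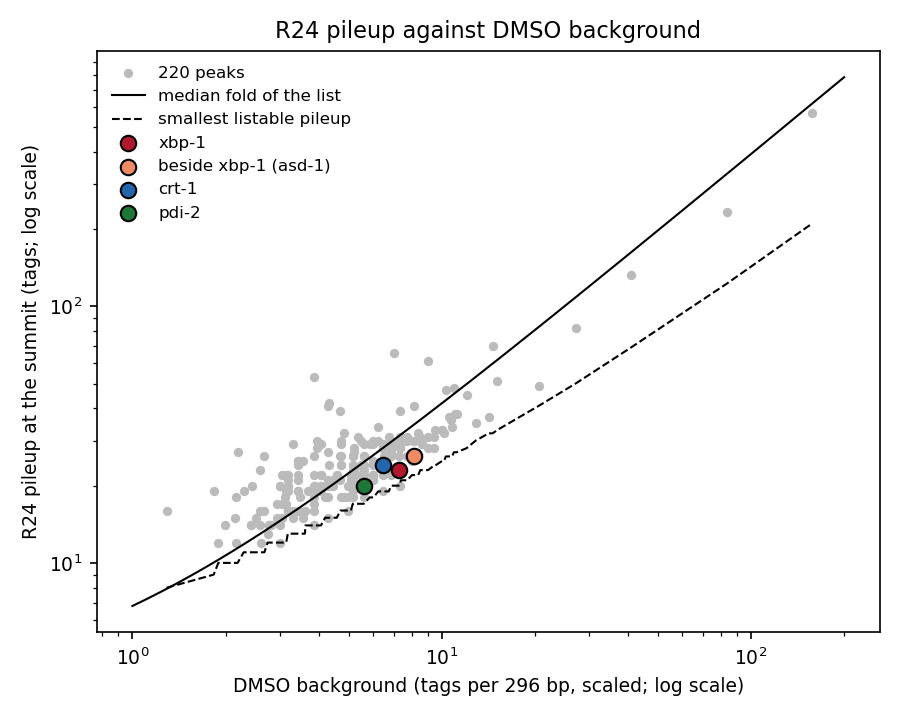
R24 pileup at the summit (y axis, tags, log scale) against the DMSO background (x axis, scaled tags per 296 bp, log scale) for 220 peaks in grey, with the 4 described peaks in colour. The solid line marks the median fold of 3.90 and the dashed line the smallest pileup that reaches the lowest −log10 p of the list, and the 4 coloured points lie between both lines, 3 to 5 tags above the dashed one.

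All 4 peaks lay closer to the limit of what the list holds than its median peak did. The lowest −log10 p of any listed peak was 4.57, and at the background of xbp-1 this needed 20 R24 tags, a fold of 2.55, so the peak was 3 tags above it. The second peak was 4 tags above its smallest pileup of 22, crt-1 was 5 above 19 and pdi-2 was 3 above 17. The median peak of the list was 7 tags above and the first quartile 4, so only xbp-1 and pdi-2 lay below that quartile. In −log10 q the values were 2.97 at xbp-1, 3.51 at the second peak, 4.19 at crt-1 and 3.10 at pdi-2, with ranks of 205, 185, 154 and 200, against a list median of 5.28 and a lowest value of 1.77.

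The background could be traced to whole DMSO tags. The peak caller takes the highest of several estimates, from the DMSO tags in the fragment length of 296 bp, in 1 kb or in 10 kb around the site. For each of the 220 peaks the background equalled a whole number of DMSO tags in 1 of these windows, with a largest deviation of 0.000461 tags. It came from the fragment window for 108 peaks, from 1 kb for 90 and from 10 kb for 22, and a number of tags in 1 kb cannot be told from 10 times as many in 10 kb.

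At the second peak beside xbp-1 the background was 19 DMSO tags (exact Poisson 95% interval 11.4 to 29.7) in the fragment window itself, at crt-1 it was 15 tags (8.40 to 24.7), and at pdi-2 it was 13 tags (6.92 to 22.2). At these 3 summits the DMSO density over the summit was thus at least as high as over the surrounding 1 kb and 10 kb. At xbp-1 the background was 57 DMSO tags (43.2 to 73.9) in 1 kb, or equally 570 in 10 kb. No more than 16 DMSO tags, 6.88 after scaling, can then lie in the fragment window of its summit. The R24 signal at the xbp-1 summit was therefore at least 3.35 times the scaled DMSO signal at the same place, and the listed fold used the wider region. This bound concerns the tags that were counted and makes no allowance for counting error. Per kb, the DMSO tags behind the background were 57 at xbp-1, 64.2 at the second peak, 50.7 at crt-1 and 43.9 at pdi-2, against a median of 40.5 over the list.

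The 4 ratios differed by less than counting error. Without added tags, R24 over scaled DMSO was 3.17 at xbp-1 (exact binomial 95% interval 1.87 to 5.23), 3.18 at the second peak (1.70 to 6.09), 3.72 at crt-1 (1.87 to 7.63) and 3.58 at pdi-2 (1.69 to 7.83). Each interval holds the ratios of the other 3 peaks. It also holds the list's median ratio of 4.55 in each case. These intervals cover counting error only, not the spread between animals or preparations, and do not allow for the choice of the summit as the highest point.

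The xbp-1 peak and its neighbour formed a close pair. Only 140 bases separated them, the summits were 531 bp apart, and both together spanned 756 bp. Since the summits are farther apart than 1 fragment of 296 bp, no extended tag was counted at both, and the 23 and 26 R24 tags are different tags. The 2 pileups differed by less than counting error, with a ratio of second to first of 1.13 (exact binomial 95% interval 0.620 to 2.07). Together the summits held 49 R24 tags (exact Poisson 95% interval 36.3 to 64.8) and at most 35 DMSO tags, so R24 over scaled DMSO was at least 3.26 for the pair. This bound likewise makes no allowance for counting error. The DMSO counts were not independent, because a window of 1 kb around the xbp-1 summit reaches into the fragment window of the second.

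The list held 13 places where neighbouring peaks were less than 1 kb apart, with 60 to 935 bases between them, and the gap at xbp-1 was the smallest but for 2. In 2 of the 13 places both folds were under 3, at xbp-1 and at lips-9, a lipase gene on chromosome II with folds of 2.92 and 2.85. Both peaks at xbp-1 were short. The second was 298 bp long and the first 318 bp, near the shortest listed length of 296 bp, and 20 and 55 of the 220 peaks were no longer than these. The nearest other peak was 705 kb from the xbp-1 summit, that of the noncoding RNA gene F26F4.14 with a fold of 6.97.

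**Figure D4:**
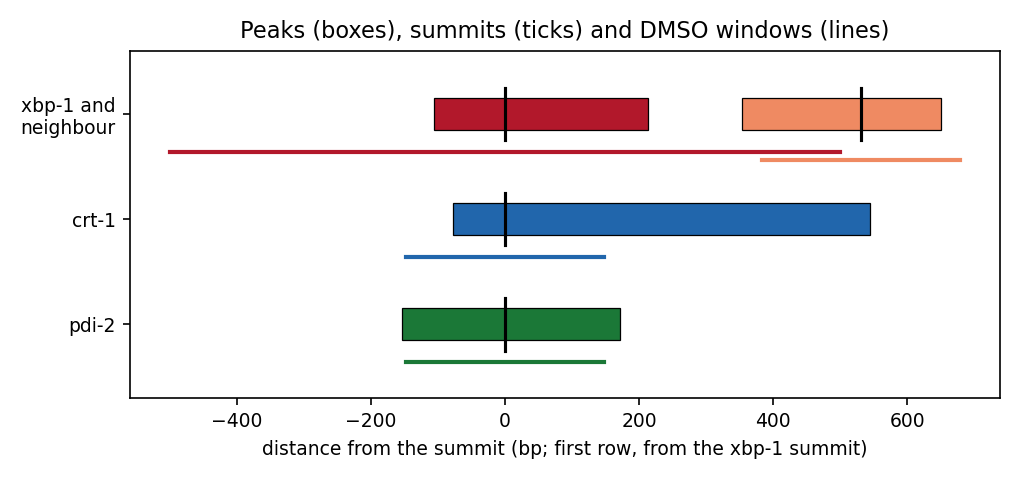
Extent of the 4 peaks (boxes) and their summits (ticks) by distance in bp from the summit, with the first row drawn from the xbp-1 summit and the line under each box showing the window that set its DMSO background. The peaks at xbp-1 are 318 and 298 bp long with 140 bases between them, and the summit of the 622 bp crt-1 peak lies 78 bp from its left end.

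The crt-1 peak had a different shape. It was 622 bp long, rank 31 of 220 and longer than the median of 359 bp, while the pdi-2 peak was 324 bp long. Its summit lay 78 bp from its left end, at 12.5% of its length, and only 6 of the 220 summits lay closer to an end of their peak in proportion to length. The summit of the pdi-2 peak lay at 47.2% of its length, close to the centre. Neither had another peak within 10 kb. The nearest was 267 kb from the crt-1 summit (fold 3.83) and 180 kb from the pdi-2 summit (fold 4.35, joined to K02G10.1).

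In fold, the xbp-1 peak stood between that of lips-9 (2.92) and a peak on chromosome X joined to no gene (2.89), and the second peak between those of lec-6 (2.953) and lips-9. The crt-1 peak stood between the peaks of egl-30 (3.36) and coq-3 (3.34). The pdi-2 peak stood between a peak on chromosome II joined to no gene (3.192) and that of C31C9.2 (3.187). In background, the peak next above the second peak was that of Y87G2A.2 (8.40) and the next below was joined to no gene (8.01). F44E5.14 (6.49) and a peak joined to no gene (6.23) stood next to crt-1, and a peak joined to no gene (5.60) and nhr-21 (5.47) next to pdi-2. The value of 6.23 was shared with ndx-8, and that of 5.47 with ant-1.1 and F21C10.10. Peaks that tied with a member in background were passed over. The highest backgrounds of the list, 157 tags at olrn-1 and 83.8 at aex-5, were far above all of these.

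No other gene written down here for ER protein folding was in the gene table. Of 39 annotated genes written down for the ER, 3 were listed, and these are the 3 members. In the table were 182 of all 46926 annotated genes (0.388%) and 153 of the 19983 protein-coding genes (0.766%). The members were chosen from the table, so this count is not evidence for the group. Among 6 sensors and factors of the response xbp-1 was listed, while ire-1, pek-1 and atf-6, the 3 sensors, and atf-4 and rtcb-1, the ligase that joins the spliced xbp-1 message, were not. Among 12 chaperones crt-1 was listed, while the BiP genes hsp-3 and hsp-4 and the calnexin gene cnx-1 were not. Among 9 genes of oxidative folding and prolyl hydroxylation pdi-2 was listed, while pdi-1, pdi-3, pdi-6 and the oxidase gene ero-1 were not. None of 12 genes of ER-associated degradation, none of 8 genes of the mitochondrial unfolded protein response and none of 15 cytosolic heat shock genes was listed. With 0.766% of protein-coding genes in the table, lists of this size would mostly hold none, so these absences say little about the lists. Absence from the table does not show that NHR-86 was absent from a gene, since the rule that made the table is not given in the sources used here.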

How the data were processed

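Sequencing and alignment were the authors'. They mapped reads with BWA MEM (0.7.15) to ce10, used Picard and SAMtools for sorting and filtering, and called peaks with MACS2 (2.1). Per the file headers, MACS (2.1.1.20160309) used R24 as treatment and DMSO as control, 1 tag per position, a fragment length of 296 bp, a q cutoff of 0.05 and a genome size of 2.7 Gb, the human setting. The published methods name the no-model option and a p threshold in place of these. The deposited peak list gives pileup (signal), fold (ratio), −log10 p and −log10 q. Recovered backgrounds gave the listed −log10 p again within 0.000322.

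The authors' deposited gene table has no positions. The authors' deposited column headed as enrichment holds numbers made from −log10 q or fold values of peaks, and was used as a score, to join genes to peaks. Divided by 1.325, it equalled the −log10 q of a peak on the same chromosome for xbp-1, crt-1, pdi-2 and asd-1 (tolerance 6e-06). Of the 189 genes, 146 were joined to a peak: 108 by −log10 q, 16 by fold and 22 by the decimals of −log10 q alone. The last, weaker match gave the names olrn-1, aex-5, nhr-21, F26F4.14 and Y48C3A.5. A peak described as joined to no gene is one for which no match was found. Its −log10 p and −log10 q columns hold the authors' own comparison and were not used. RefSeq (WBcel235) matched 182 of 189 genes and gave names and gene order only, and 4 names of the ER lists and 1 heat shock name were not matched.

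Intervals were computed in Python 3.11.15 with SciPy 1.17.1, and the window decoding was tested on simulated data. Named were the members, their neighbours, listed genes of the fixed lists, the peaks next to each member in background and fold (strictly higher or lower), the 2 highest backgrounds, the nearest other peaks, lips-9 for its peak pair and apy-1, the last 3 kinds added after values were seen. Where several peaks tied next to a member in background, the first in the list was taken. The tied peaks named beside it were added after values were seen. Members, lists and rules were chosen with earlier results of these data known. Alternatives covered the background floor, added tags, and the peaks and measure used for ranks.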

Additional observations from a re-analysis of the deposited data

How the results depend on the processing

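With 1 library per group, no result has a replicate check. The alternatives tried numbered 31, and each gave a value within the counting interval of its main value, or a count within 1.5 times it. For the ranks these intervals reached the end of the list, so they could show no change. With the worm background floor the 4 folds could not move, since the floor of 2.89 tags lay below all 4 backgrounds. With no tag added they ran from 3.17 to 3.72, and with 10 tags added from 1.91 to 2.07. Ranked by pileup minus background, xbp-1 moved to 153 and the second peak to 115. With only the 215 peaks of q under 0.01 the ranks were 207, 205, 171 and 188 for xbp-1, the second peak, crt-1 and pdi-2. With peaks under 1 kb apart counted as 1, which left 207, the xbp-1 pair ranked 196. A fold of at least 3 left 2 of the 3 listed ER genes, without xbp-1, a change that stood exactly at the limit of 1.5 times. The planned ranking among the 17 peaks with a background of at least 2 times the median gave no value, as none of the 4 peaks was among them. Ranks among peaks of like background were chosen after seeing the data. No paired analysis was possible because each group held 1 library.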

Other observations

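A further gene of the gene table, apy-1, encodes an apyrase that has been linked to the unfolded protein response in C. elegans. It was in no list and was chosen after its values were seen. Its peak (X, 7570019 to 7570314) had 14 R24 tags over a DMSO background of 3.87, from 9 DMSO tags in the fragment window. The fold was 3.08 and the −log10 q 1.98, rank 216 of 220. The apy-1 peak stood at the limit of the list, since 14 tags was the smallest listable pileup at this background. Unlike the 4 peaks at xbp-1, crt-1 and pdi-2, its background lay below the list's median of 5.16. The counting interval of the apy-1 background, 1.77 to 7.34 tags, holds this median.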
